A study of Mus musculus with 7 samples.

Results

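Accessible chromatin was examined at 9 genes of hepatic glucose production and glycogen turnover: G6pc, Pck1, Fbp1, Pcx, Pklr, Gys2, Pygl, Slc2a2 and Ppargc1a. A region of the deposited table belonged to a gene when it overlapped the gene body (GENCODE M21, GRCm38) or the 10 kb on either side, and 69 of 55680 regions met this rule. Each of the 9 genes had at least 3 regions, with 7 for G6pc, 3 for Pck1, 10 for Fbp1, 18 for Pcx, 4 for Pklr, 6 for Gys2, 6 for Pygl, 7 for Slc2a2 and 8 for Ppargc1a. They were 242 to 5304 bp long, 55 of the 69 overlapped a gene body, and 0 matched another place in the genome almost identically.

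The samples were liver from male C57BL/6N mice, 3 young samples from 3-month-old and 4 aged samples from 18-month-old animals, measured by ATAC-seq, in which a transposase inserts sequencing adapters into exposed DNA. Animals had free access to a standard diet, and the hour at which tissue was taken is not given in the sources used here. By the labels, the 4 aged samples came from 3 mice, because 2 lobules of 1 liver were taken as separate samples. The study counts 4 aged biological replicates. Which samples came from the same liver is not stated, so p-values for age rest in part on samples that share an animal. Values are CPM, the counts in a region scaled to the library's total over all regions, with TMM normalization, and age was tested with edgeR's quasi-likelihood test and Benjamini-Hochberg adjustment over all regions, with adjusted p under 0.05 as the threshold for a call.

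The liver releases glucose in fasting and stores it as glycogen after meals. New glucose is built from pyruvate by a chain that runs through pyruvate carboxylase (Pcx), the cytosolic phosphoenolpyruvate carboxykinase (Pck1), fructose-1,6-bisphosphatase (Fbp1) and glucose-6-phosphatase (G6pc), while liver pyruvate kinase (Pklr) works in the opposite, glycolytic direction. Glycogen synthase 2 (Gys2) extends liver glycogen, glycogen phosphorylase (Pygl) breaks it down, the transporter GLUT2 (Slc2a2) carries glucose across the hepatocyte membrane, and the coactivator PGC-1alpha (Ppargc1a) raises transcription of gluconeogenic genes in fasting.

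Total counts in regions ran from 4474652 to 25461110 per library, with young 2 the deepest and aged 3 the shallowest. The median log2 fold change (aged over young) over all regions was -0.04, and it rose from -0.42 in the decile of regions with the lowest abundance to 0.28 in the decile with the highest. The promoter regions of 6 hepatocyte markers summed to 524 to 590 CPM in young and to 659 to 772 CPM in aged samples. All 6 of these markers, among them Alb and Apoa1, had a promoter region, against 1 of 5 macrophage, 4 of 5 endothelial, 3 of 5 stellate, 3 of 5 cholangiocyte and 0 of 5 lymphocyte markers. The macrophage sum was 2.22 to 2.65 CPM in young and 0.588 to 2.8 CPM in aged samples, the endothelial sum 63.3 to 72.3 and 52.5 to 87.8 CPM, the stellate sum 22.0 to 25.8 and 13.1 to 20.6 CPM, and the cholangiocyte sum 43.8 to 51.9 and 39.4 to 56.9 CPM. The stellate sum was thus lower and the hepatocyte sum higher in every aged than in every young sample. Reln made up most of the stellate sum (18.7 CPM in young and 11.7 CPM in aged liver on average, log2 fold change -0.64), while Lrat had -0.23 and Hand2 0.24. Sox9 made up most of the cholangiocyte sum (42.7 and 40.7 CPM, log2 fold change -0.05), while Epcam had -0.77 and Spp1 0.16. Of the hepatocyte markers, 5 of 6 were above 0 and Apoa1 was called (0.53, adjusted p = 0.0331 by edgeR). Among the promoter regions of all protein-coding genes, 66.7% were above 0 and 5.02% were called more accessible. The part of these markers in the results below was not tested. In whole liver, a change in the share of a cell type and a change within its nuclei cannot be told apart.

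Of the 69 regions, 2 became more accessible and 3 less accessible with age. The more accessible regions lay at a promoter of Pygl and inside Slc2a2, and the less accessible regions all lay inside Gys2. These calls made up 2.9% and 4.35% of the regions, while 2.44% of all regions in the table were more and 3.3% less accessible, so the shares were near the background. Of the log2 fold changes, 41 were positive and 28 negative, around a median of 0.07. Every aged sample exceeded every young sample in 4 regions (5.8%), against 10.2% of all regions, and every aged sample lay below every young sample in 5 (7.25%), against 11.6% of all regions. Each of the 5 calls depended on single libraries: without young 1, young 2, aged 1 or aged 3, 0 of the 69 regions passed, with smallest adjusted p of 0.0658, 0.0514, 0.0558 and 0.0586. With aged 1 and aged 3 summed into 1 sample, as if they shared the animal, 0 passed as well (smallest adjusted p 0.0501), whereas each of the other 5 pairs left at least 4 of the calls. At an unadjusted p under 0.05 stood 18 of the 69 regions, and 24.6% of all regions, in the fit of all samples.

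**Figure D1:**
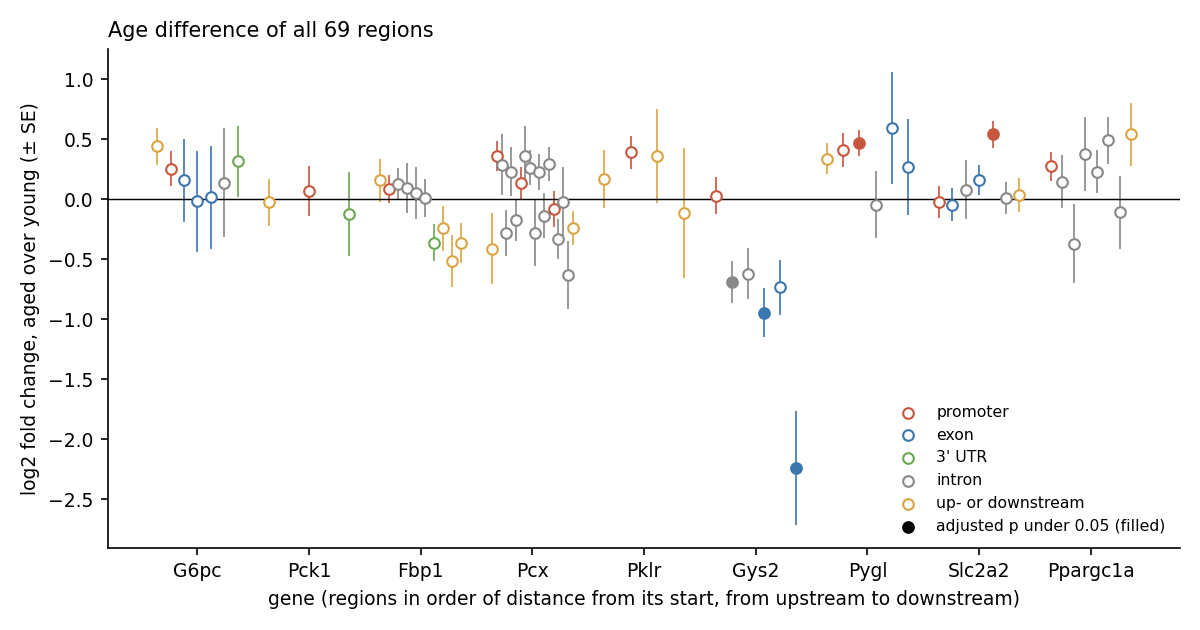
Log2 fold change (aged over young, y axis, with its SE) of the 69 regions, grouped by gene on the x axis and ordered from upstream to downstream, with colours for the kind of region and filled points for an adjusted p under 0.05. The 5 filled points are 3 regions inside Gys2 below 0 and 1 region each of Pygl and Slc2a2 above 0.

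The largest age differences of the group were in Gys2. Its body lies on the minus strand of chromosome 6 (chr6:142422613-142473109), and all 6 of its regions overlapped it. The 5 regions away from the promoter had log2 fold changes from -2.24 to -0.62, and in 4 of them every aged sample lay below every young sample. This subset was drawn up after its values were seen, and its counts are a description.

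The region with the steepest fall, at chr6:142430291-142431196, overlaps an exon in the distal part of the gene, with its centre about 42.4 kb from the start. Young samples had 7.31, 11.3 and 3.62 CPM there, and aged samples had 0.527, 3.53, 1.63 and 1.53 CPM. The lowest young sample and the highest aged sample were almost equal, but the groups did not overlap. Accessibility fell by 2.24 on the log2 scale (SE 0.474, adjusted p = 0.0197 by edgeR). It is a weak region, with 6 to 18 counts in the aged libraries and 22 to 298 in the young ones.

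The second, at chr6:142459058-142460371, overlaps an exon about 13.4 kb from the start. It had 30.8, 38.0 and 19.4 CPM in young and 12.9, 18.4, 14.9 and 16.3 CPM in aged samples. Young 3 was close to the aged samples and the other two young libraries were well above them, without overlap. The fall was -0.94 on the log2 scale (SE 0.203, adjusted p = 0.0206 by edgeR), which corresponds to 0.52 of the young level. The third, an intronic region at chr6:142469749-142471534, 2.47 kb from the start, had 40.5, 49.1 and 38.1 CPM in young and 19.4, 35.7, 28.5 and 24.3 CPM in aged samples. Again the groups did not overlap, with aged 2 nearest to the young samples, and the log2 fold change was -0.69 (SE 0.176, adjusted p = 0.0381 by edgeR).

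Without young 1, young 2, aged 1 or aged 3, the log2 fold changes were -2.25, -1.75, -1.82 and -2.24 for the distal exon region, -0.91, -0.71, -0.85 and -0.93 for the second exon region and -0.72, -0.56, -0.55 and -0.72 for the intronic region, and none of these passed the threshold. With loess offsets on mean abundance (abundance offsets), the second exon region and the intronic region kept adjusted p of 0.0336 and 0.0397, and the distal exon region had a log2 fold change of -2.002 with an adjusted p of 0.0533.

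The central 200 bases of the 3 called Gys2 regions are given because these are the regions of the gene that passed the test. They are written 5′ to 3′ on the minus strand of GRCm38, and all of them fall between exons, although the first 2 regions each reach into one. Capitals mark letters of any searched motif on either strand.
Gys2, chr6:142430643-142430842: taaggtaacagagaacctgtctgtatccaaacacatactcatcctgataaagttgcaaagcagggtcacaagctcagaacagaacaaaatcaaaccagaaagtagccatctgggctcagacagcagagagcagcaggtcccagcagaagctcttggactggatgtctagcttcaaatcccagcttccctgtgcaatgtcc
Gys2, chr6:142459614-142459813: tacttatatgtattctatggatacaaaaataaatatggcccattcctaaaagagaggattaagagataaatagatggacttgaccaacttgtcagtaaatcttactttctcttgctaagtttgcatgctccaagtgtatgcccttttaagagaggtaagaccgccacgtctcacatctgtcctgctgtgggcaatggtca
Gys2, chr6:142470541-142470740: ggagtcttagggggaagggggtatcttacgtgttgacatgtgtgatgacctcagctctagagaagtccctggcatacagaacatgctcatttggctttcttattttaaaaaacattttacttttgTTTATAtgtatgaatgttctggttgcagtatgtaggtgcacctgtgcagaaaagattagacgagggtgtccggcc

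Searched on both strands were the cAMP response element TGACGTCA, its core TGACG (which the full element contains), a forkhead motif TGTTTAC, the E-box CACGTG, the TATA box TATAAA, an HNF1 core GTTAAT, an HNF4 motif CAAAGTCCA and a C/EBP motif TTGCGCAA. Of these, the centres of the first 2 regions held none of the letters, and the third held the TATA box letters, which 7.55% of the centres of all regions contain.

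The remaining Gys2 regions did not pass the test. An exonic region at chr6:142450708-142452173 had 30, 36.8 and 16.3 CPM in young and 12.7, 17.5, 19.8 and 18.7 CPM in aged samples (log2 fold change -0.73, SE 0.232, adjusted p = 0.0734 by edgeR), and here young 3 lay among the aged samples. An intronic region at chr6:142468366-142468957 had a log2 fold change of -0.62 (SE 0.215, adjusted p = 0.097 by edgeR), with all aged samples lower.

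The promoter of Gys2 (chr6:142472612-142473683) had 43.3, 50.9 and 33.5 CPM in young and 40.1, 39.8, 55.3 and 41.6 CPM in aged samples. Young and aged values were interleaved, and aged 3 was the highest of all 7 samples. The log2 fold change was 0.03 (SE 0.155, adjusted p = 0.93 by edgeR). Whether the promoter and the body of Gys2 differed in their response to age was not tested.

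**Figure D2:**
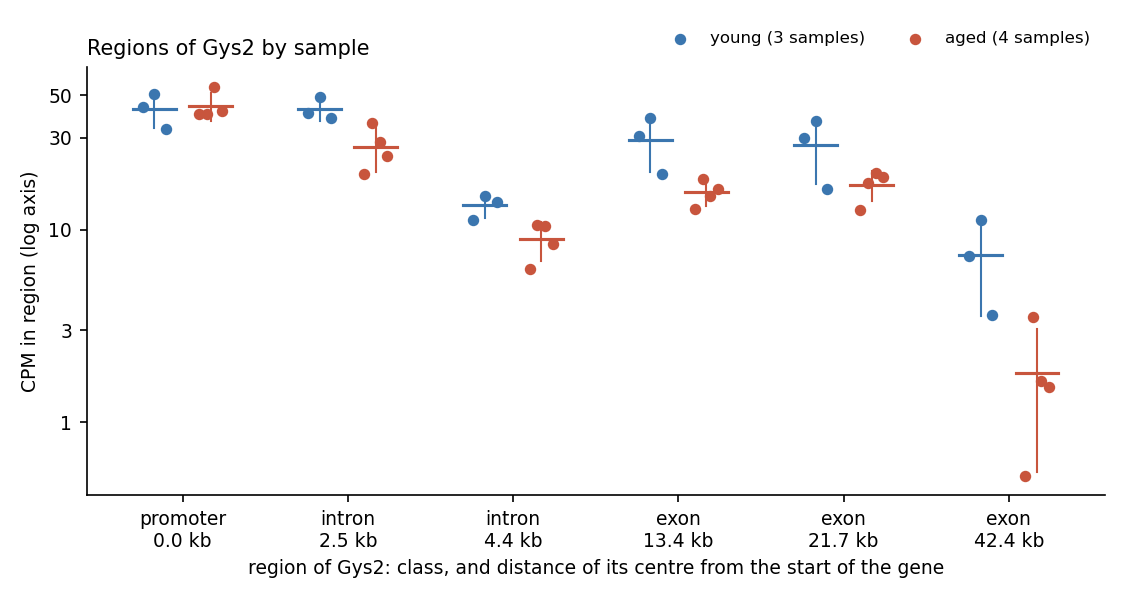
CPM (y axis, log scale) of the 6 regions of Gys2 in each sample, ordered by distance from the start of the gene on the x axis; points are samples, horizontal bars group means and vertical bars ± SD. The promoter values of young and aged samples overlap, whereas the 3 called regions, in the intron at 2.5 kb and the exons at 13.4 and 42.4 kb, are lower in every aged sample.

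Pygl, which degrades the polymer that Gys2 builds, was more accessible in aged liver. Its body is on the minus strand of chromosome 12 (chr12:70190811-70231488). The stronger of its promoter regions, chr12:70225817-70228250, covers the start of a protein-coding transcript at position 70227683 and also a promoter of the overlapping gene F730035M05Rik, so reads there cannot be assigned to one of the genes. Young samples had 59.4, 64.3 and 67.1 CPM, and aged samples had 93.8, 84.3, 92.0 and 81.3 CPM. All aged samples were above all young samples with a gap wider than the spread within either group. The log2 fold change was 0.47 (SE 0.108, adjusted p = 0.0264 by edgeR), or 1.38 times the young level.

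Without young 1, young 2, aged 1 or aged 3 the log2 fold change of this region was 0.43, 0.48, 0.43 and 0.45, with adjusted p from 0.084 to 0.112. It was 0.18 with abundance offsets (adjusted p = 0.431) and 0.35 with total counts (adjusted p = 0.061). The region belonged to the most abundant decile, whose median was 0.28.

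The 250 bases before the RefSeq start site of Pygl (GRCm38, minus strand, inside the called region) are shown as the promoter sequence with the age difference, with letters of a searched motif on either strand in capitals.
Pygl, chr12:70227684-70227933: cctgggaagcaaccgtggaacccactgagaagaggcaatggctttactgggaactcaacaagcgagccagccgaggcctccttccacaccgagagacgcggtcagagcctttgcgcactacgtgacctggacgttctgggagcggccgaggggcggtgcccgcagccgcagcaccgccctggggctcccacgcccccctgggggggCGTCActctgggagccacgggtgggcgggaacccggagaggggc
Of the motifs, only the cAMP response element core was present, on the opposite strand, at position -44 from the start. RefSeq promoters of 250 bases before to 50 after the start contained these letters in 20.8% of 32851 entries.

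The other promoter region of Pygl, chr12:70231223-70232190 at the 5′-most start, had 26.8, 29.7 and 39.3 CPM in young and 44.4, 42.8, 44.8 and 36.8 CPM in aged samples. Aged 4 was below young 3, so the groups overlapped, and the log2 fold change of 0.41 (SE 0.142, adjusted p = 0.0953 by edgeR) did not pass. In total, 5 of its 6 regions leaned upwards. Summed over all regions of the window, Pygl had 134, 151 and 144 CPM in young and 197, 197, 206 and 161 CPM in aged samples, higher in each aged sample. Such sums were tested for the 16231 protein-coding genes with a region, of which 6.1% were more and 3.27% less accessible. The sum for Pygl was more accessible with age (log2 fold change 0.41, SE 0.1, adjusted p = 0.0348 by edgeR), and it was the only one of the 9 sums called. That call was lost without any of the 3 young libraries, aged 1 or aged 3 (log2 fold change 0.37, 0.45, 0.43, 0.39 and 0.37, adjusted p from 0.0542 to 0.0987). It was also lost with abundance offsets (0.24, adjusted p = 0.24) and with total counts (0.30, adjusted p = 0.0995).

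The sum for Gys2 was 163, 201 and 125 CPM in young and 92, 126, 131 and 111 CPM in aged samples. Young 3 fell within the aged range, and the log2 fold change of -0.52 (SE 0.156, adjusted p = 0.0554 by edgeR) lay just outside the threshold. Leaving out 1 library moved it between -0.34 without young 2 (adjusted p = 0.198) and -0.67 without young 3 (adjusted p = 0.0299), and without aged 1 it was -0.42 (adjusted p = 0.14). With DESeq2 it was -0.48 with an adjusted p of 0.0283.

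**Figure D3:**
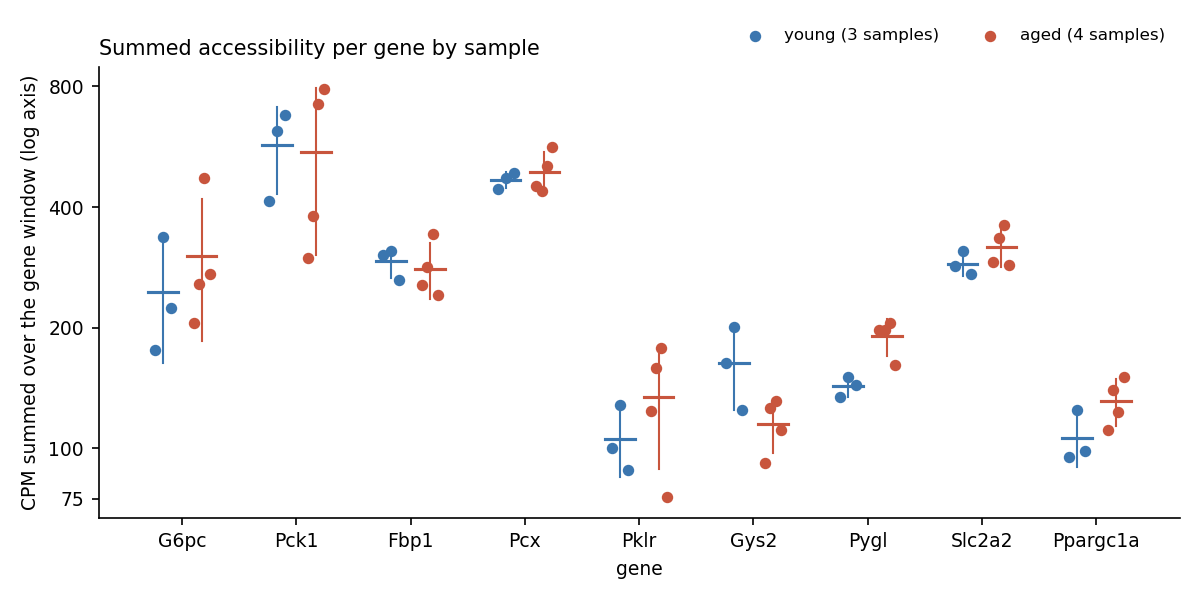
CPM summed over all regions of each gene window (y axis, log scale) for the 9 genes on the x axis; points are samples, horizontal bars group means and vertical bars ± SD. The Pygl sum is higher in every aged sample, and the sums of G6pc, Pck1 and Pklr spread widely within an age.

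Slc2a2 lies on the plus strand of chromosome 3 (chr3:28697903-28731359). Of its 7 regions, the one at chr3:28721374-28723030 became more accessible. It overlaps the annotated start of a retained-intron transcript (position 28721517) about 24.3 kb inside the gene, and it counts as a promoter region only by that transcript. It also lies in the body of 1700112D23Rik, an antisense gene, so its accessibility cannot be assigned to one of the genes. It had 52.2, 56.4 and 46.9 CPM in young and 74.4, 74.3, 82.4 and 72.5 CPM in aged samples. The 4 aged samples were well above the 3 young ones, with a log2 fold change of 0.54 (SE 0.11, adjusted p = 0.0172 by edgeR), or 1.46 times the young level. Without young 1, young 2, aged 1 or aged 3 it was 0.55, 0.61, 0.55 and 0.50, with adjusted p from 0.0514 to 0.0698, and with abundance offsets it was 0.29 (adjusted p = 0.169).

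The central 200 bases of this region (GRCm38, plus strand, between exons) are given as the internal element with the smallest adjusted p of the 69 regions.
Slc2a2, chr3:28722102-28722301: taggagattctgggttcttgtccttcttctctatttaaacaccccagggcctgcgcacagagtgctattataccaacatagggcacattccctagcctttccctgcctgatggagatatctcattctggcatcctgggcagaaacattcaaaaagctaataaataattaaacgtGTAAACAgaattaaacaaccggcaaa
They contained the forkhead motif on the minus strand, in capitals, as did 4.1% of the centres of all regions.

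At the start of Slc2a2 itself, the promoter region chr3:28695533-28700379 had 88.3, 96.2 and 96.0 CPM in young and 80.2, 108, 104 and 76.9 CPM in aged samples. Aged 2 and aged 3 lay above and aged 1 and aged 4 below all young samples (log2 fold change -0.03, SE 0.133, adjusted p = 0.931 by edgeR). The other 5 regions of the gene had log2 fold changes from -0.04 to 0.16, and the window sum had 0.14 (SE 0.103, adjusted p = 0.379 by edgeR).

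The gluconeogenic genes gave no call, and the window sums of 2 of them, Pck1 and G6pc, differed among the aged samples by more than 2-fold. The body of Pck1 (chr2:173153048-173159273, plus strand) was covered by broad regions. The region over its 3′ UTR, chr2:173155991-173160746, had 225, 352 and 396 CPM in young and 129, 177, 415 and 473 CPM in aged samples. The 4 aged samples fell into a low pair (aged 1 and 2) and a high pair (aged 3 and 4) on either side of the young range. The log2 fold change was -0.12 (SE 0.349, adjusted p = 0.863 by edgeR), and its standard error was wider than that of the promoters described above. It ran from -0.70 with abundance offsets (adjusted p = 0.314) to 0.13 without aged 1 over the alternatives, none of which gave a call.

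The Pck1 promoter (chr2:173152262-173154897) had the same low and high pairs, with 99, 141 and 139 CPM in young and 91.5, 99.4, 174 and 167 CPM in aged samples (log2 fold change 0.07, SE 0.212, adjusted p = 0.872 by edgeR). Per kb, it ranked at the 98.3 percentile of all regions in young liver. The upstream region at chr2:173142984-173148287 also had its lowest value in aged 1 and its highest in aged 4, at 79.2 and 150 CPM. The summed window held 414, 618 and 678 CPM in young and 299, 380, 724 and 790 CPM in aged samples, a 2.64-fold range among aged samples, and its spread within an age (an SD of 0.585 in log2 units) was at the 97.8 percentile of all gene windows. The log2 fold change of the sum was -0.06 (SE 0.296, adjusted p = 0.913 by edgeR). The spread limits what these samples can resolve, and the smallest detectable difference was not estimated.

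For Pck1 and G6pc, the bases of the RefSeq promoters before the first GENCODE start are shown on the plus strand of GRCm38, because these are the classic fasting-regulated promoters of the pathway, and neither passed the test for age here. Motif letters on either strand are in capitals.
Pck1, chr2:173152823-173153047: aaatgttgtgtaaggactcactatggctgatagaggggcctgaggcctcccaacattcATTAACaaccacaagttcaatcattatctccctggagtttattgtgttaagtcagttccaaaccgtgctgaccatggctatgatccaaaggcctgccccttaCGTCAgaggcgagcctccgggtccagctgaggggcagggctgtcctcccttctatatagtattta
G6pc, chr11:101367466-101367560: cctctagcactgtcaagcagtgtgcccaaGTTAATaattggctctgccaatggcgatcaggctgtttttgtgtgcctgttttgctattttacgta
Pck1 held the cAMP response element core at -90 and the HNF1 core at -192 from the RefSeq start, both on the minus strand. G6pc held the HNF1 core at -221 and the TATA box at -29, the latter beyond the bases shown. The HNF1 letters occur in 7.1% and the TATA letters in 13.6% of RefSeq promoters. RefSeq entries were found for 8 of the 9 genes. Among the others, the TATA letters were present at -31 in Pklr and the cAMP response element core at -49 in Ppargc1a. The E-box, found in 7.15% of RefSeq promoters, was present at -248 in Pcx. The Ppargc1a entry (chr5:51567676-51567975) lies at the 5′-most start, where no region was found, and not in the promoter region described below.

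G6pc (chr11:101367561-101377903, plus strand) had its smallest adjusted p at an upstream region, chr11:101362183-101365164, with 47.5, 69.1 and 54.1 CPM in young and 63.6, 75.3, 97.8 and 75.7 CPM in aged samples. Only aged 1 was below a young sample, and the log2 fold change of 0.44 (SE 0.157, adjusted p = 0.103 by edgeR) did not pass. The promoter (chr11:101367390-101368436) had 27.3, 36.3 and 28.8 CPM in young and 38.2, 29.8, 42.7 and 37.4 CPM in aged samples, with young 2 and aged 2 crossing between the groups (log2 fold change 0.26, SE 0.147, adjusted p = 0.302 by edgeR). Leaving out 1 library moved it between 0.18 without young 1 and 0.40 without young 2.

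Behind the promoter, the 5 regions in and at the end of the G6pc body differed more among samples of an age than the promoter did, with an SD within an age of 0.593 to 0.937 log2 units against 0.217 at the promoter. An exonic region, chr11:101373185-101374600, had 16.5, 41.2 and 28.1 CPM in young and 9.66, 23.7, 61.6 and 27.0 CPM in aged samples. Aged 3 and young 2 were high and aged 1 was low, and the log2 fold change was 0.02 (SE 0.431, adjusted p = 0.986 by edgeR). The region over the 3′ end, chr11:101377215-101379714, was again highest in aged 3 (160 CPM) and young 2 (123 CPM), with 49.6 to 89.2 CPM in the other samples. Summed, G6pc had 176, 336 and 224 CPM in young and 206, 257, 473 and 273 CPM in aged samples, with a spread at the 96.3 percentile of gene windows and a log2 fold change of 0.29 (SE 0.265, adjusted p = 0.461 by edgeR). Without aged 3 that value was -0.004.

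None of the 10 regions of Fbp1 (chr13:62864753-62888282, minus strand) was called. The promoter region chr13:62887309-62889579 held 69, 71.2 and 63.3 CPM in young and 62.5, 72.2, 82.6 and 72.8 CPM in aged samples, overlapping (log2 fold change 0.09, SE 0.116, adjusted p = 0.683 by edgeR). The smallest adjusted p was at a region of the gene body that overlaps an annotated 3′ UTR, chr13:62875001-62875897, with 16.8, 18.5 and 15.8 CPM in young and 13.8, 13.9, 13.3 and 12.3 CPM in aged samples. Every aged sample was lower, but the log2 fold change of -0.36 (SE 0.154, adjusted p = 0.165 by edgeR) did not pass. Of the regions past the end of the gene, 2 overlap promoters of the neighbouring Fbp2, the muscle form of the enzyme, with log2 fold changes of -0.36 and -0.51 (adjusted p = 0.196 and 0.166 by edgeR), and the latter also serves as the Fbp2 promoter among the pathway genes below. The window sum of Fbp1 had a log2 fold change of -0.07 (SE 0.122, adjusted p = 0.732 by edgeR).

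Pcx (chr19:4510472-4621752, plus strand) is the longest of the group after Ppargc1a and had the most regions. Its promoter at the 5′ start, chr19:4509395-4511685, had 80.1, 89.0 and 68.1 CPM in young and 95.2, 93.7, 101 and 118 CPM in aged samples. All aged samples were higher, and the log2 fold change of 0.36 (SE 0.125, adjusted p = 0.0952 by edgeR) was short of the threshold. Promoter regions of internal transcript starts, about 47.6 and 84.2 kb downstream, had log2 fold changes of 0.13 and -0.08. Among all 18 regions, 8 were above 0 and 10 below, from -0.63 to 0.36, and the window sum had 0.07 (SE 0.106, adjusted p = 0.679 by edgeR).

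Pklr (chr3:89136142-89146784, plus strand) had a promoter region at chr3:89136201-89137346 with 42.2, 43.5 and 30.9 CPM in young and 47.5, 58.1, 53.0 and 48.2 CPM in aged samples. The aged samples were all higher (log2 fold change 0.39, SE 0.136, adjusted p = 0.0954 by edgeR), without a call. Past the end of the gene, aged samples disagreed: a region at chr3:89147009-89149112, in the body of the neighbouring Hcn3, had 32.0, 53.5 and 28.3 CPM in young and 43.0, 63.7, 82.9 and 13.7 CPM in aged samples, with aged 4 below and aged 2 and 3 above all young samples. The window sum had a log2 fold change of 0.33 (SE 0.233, adjusted p = 0.341 by edgeR) and a spread within an age at the 95.3 percentile, and leaving out 1 library moved it between 0.17 without aged 3 (adjusted p = 0.658) and 0.54 without aged 4 (adjusted p = 0.0456).

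Ppargc1a (chr5:51454250-51567726, minus strand) had no region at its 5′-most start at 51567726. The promoter region described here, chr5:51551623-51554097, covers the internal start at 51553922 and had 34.6, 39.2 and 42.3 CPM in young and 41.8, 47.1, 51.8 and 47.2 CPM in aged samples. Aged 1 was just below young 3 (log2 fold change 0.28, SE 0.12, adjusted p = 0.171 by edgeR). An intronic region at chr5:51511406-51512023 had 10.2, 16.9 and 10 CPM in young and 18.9, 18.8, 16.1 and 17.2 CPM in aged samples, with young 2 inside the aged range (log2 fold change 0.49, SE 0.199, adjusted p = 0.147 by edgeR, and 0.81 with an adjusted p of 0.0644 without young 2). This region also lies in the body of the overlapping Gm43605. The window sum had a log2 fold change of 0.29 (SE 0.128, adjusted p = 0.138 by edgeR), and 6 of the 8 regions were above 0.

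Set side by side, most promoter regions were above 0, and the remaining regions lay almost evenly on both sides of 0. The difference between the 2 kinds of region was not tested. Of 13 regions at a promoter of the 9 genes, 11 were above 0 (median log2 fold change 0.26) and 2 were called. With 1 promoter region for each gene, 8 of the 9 were above 0 and 1, at Pygl, was called, where Slc2a2 at its own start had -0.025. On the same basis, 66.7% of the promoter regions of all protein-coding genes were above 0 and 5.02% were called more accessible. The 56 regions outside promoters had a median of 0.01, with 30 above 0 and 26 below, and gave the 3 calls in Gys2. Over the whole table the medians were 0.09 for promoter regions and -0.09 for the rest, so the same lean was present in the table as a whole. The promoter regions that stand for the 9 genes all lay in the 2 most abundant deciles, whose medians over all regions were 0.16 and 0.28. With abundance offsets, the log2 fold changes of these 9 regions ran from -0.33 at Slc2a2 to 0.19 at Pklr, with 0.05 at Pcx, 0.18 at Pygl and 0.10 at G6pc.

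**Figure D4:**
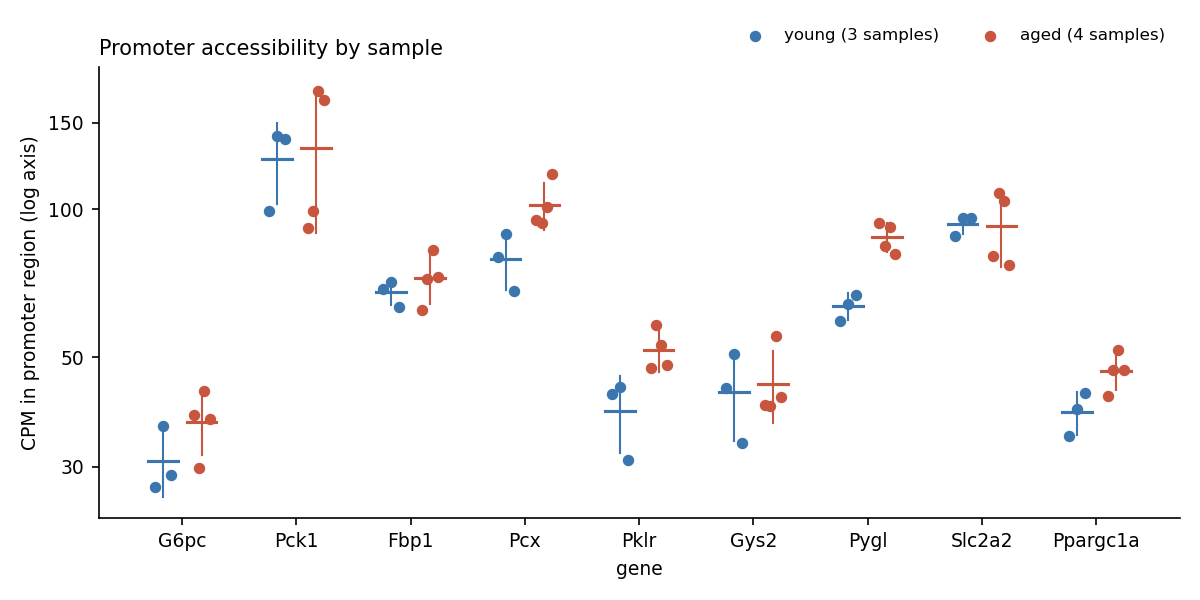
CPM of the promoter region (y axis, log scale) of the 9 genes (x axis) in each sample; points are samples, horizontal bars group means and vertical bars ± SD. Aged samples are all higher at Pcx, Pklr and Pygl, the last of which passed the test, and the ages overlap at the other 6 genes.

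The other genes of the pathway were read from the promoter regions of 62 genes in 4 lists, of which 60 had one (not Pygm and Ppp1r3g). Of these 60, 10 became more accessible (16.7%) and 0 less accessible by edgeR, while 5.02% of the 13018 promoter regions of protein-coding genes were more and 1.49% less accessible. An unadjusted p under 0.05 was reached by 33 of the 60 and by 35% of the protein-coding promoters. Positive log2 fold changes were found at 51 of the 60 and at 66.7% of all protein-coding promoters, and the medians were 0.26 and 0.13. The comparison was not matched for abundance, and the 2 most abundant deciles of all regions had medians of 0.16 and 0.28. In the 10 called regions every aged sample was above every young sample, with SEs from 0.108 to 0.127. These regions were picked by the age test on the same samples, so this is a description.

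Among 18 genes of glycolysis and gluconeogenesis, 2 were called. One was Gckr, which encodes a regulatory protein of hepatocyte glucose metabolism and had 47.6, 38.2 and 41.6 CPM in young and 64.6, 53.2, 68.2 and 66.4 CPM in aged samples. The lowest aged sample, aged 2, was above the highest young sample, young 1, and the log2 fold change was 0.57 (SE 0.124, adjusted p = 0.0212 by edgeR).

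Of 10 genes that supply pyruvate and malate, 3 were called: Pdk4, a kinase that restrains pyruvate dehydrogenase (0.67, adjusted p = 0.0131 by edgeR), Mpc2, a subunit of the mitochondrial pyruvate carrier (0.46, adjusted p = 0.0482), and Mdh1, cytosolic malate dehydrogenase (0.46, adjusted p = 0.0289). Of 17 measured genes of glycogen turnover, 4 were called. They included Gbe1, the branching enzyme (0.50, adjusted p = 0.0261 by edgeR), Ppp1r3b, which targets protein phosphatase 1 to glycogen (0.52, adjusted p = 0.0214), and Ugp2, which makes UDP-glucose (0.47, adjusted p = 0.041). Of 15 regulators only Foxa2, a forkhead factor of hepatocytes, was called (0.49, adjusted p = 0.0354 by edgeR), and the values of all 15 were positive.

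**Figure D5:**
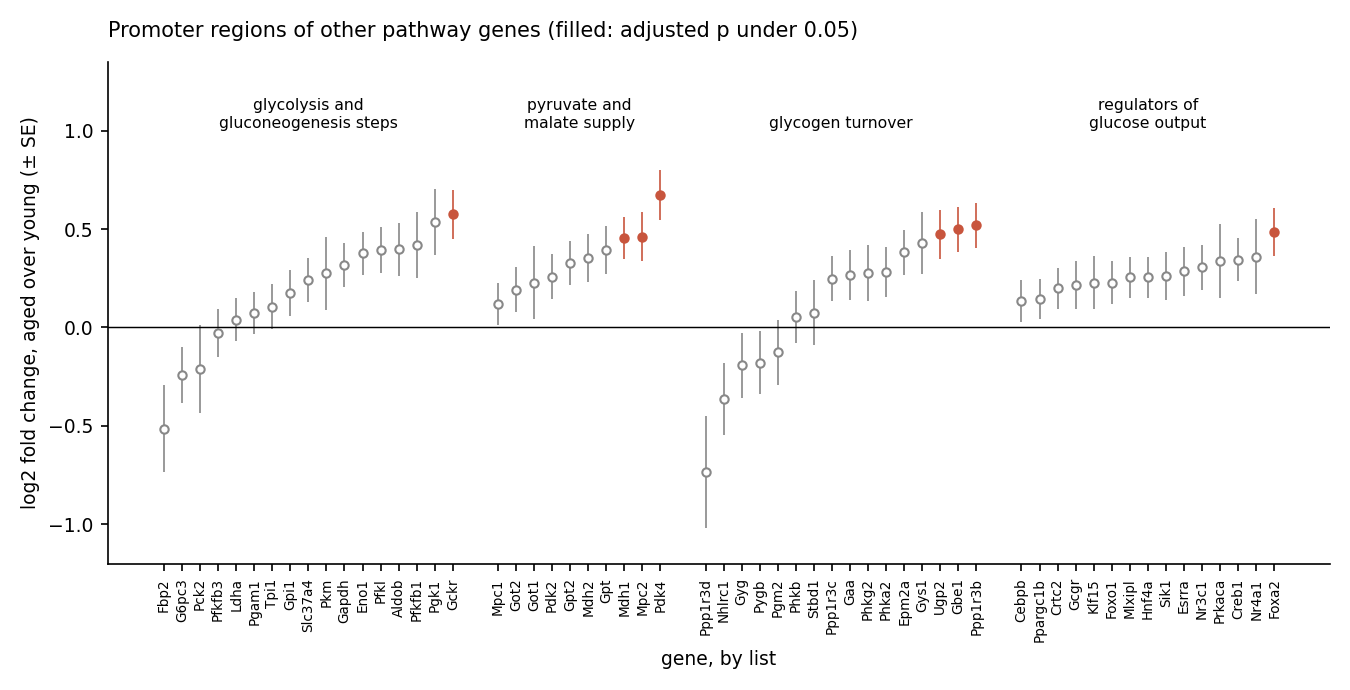
Log2 fold change (aged over young, y axis, with its SE) of the promoter region of 58 other pathway genes (x axis), ordered within 4 lists; filled points have an adjusted p under 0.05. The 8 filled points are all above 0, and 9 of the 58 genes are below 0.

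The count of called pathway promoters varied with the libraries and the normalization. It was 0 without young 1, 2 without young 2, 1 without aged 1 and 3 without aged 3, and it was 0 with abundance offsets and 19 with DESeq2. The summed promoters of the 4 lists had 3910 to 4380 CPM in young and 4790 to 5410 CPM in aged samples, and the hepatocyte marker sum was also higher in every aged sample, as given above.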

How the data were processed

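ATAC-seq libraries of 3 young and 4 aged liver samples were analysed, the aged ones from 3 mice by the labels. The authors deposited raw counts per consensus region, not normalized. Per the labels and the study's methods, reads were trimmed with cutadapt 1.13, aligned to GRCm38 with Bowtie2 2.4.1, filtered, and peaks were called for each library with MACS2 2.2.7 before counting with featureCounts. Regions were kept where 2 or more libraries had a peak, and the authors had discarded PCR duplicates. Counts per library summed to between 4474652 and 25461110, and 0 columns were left unassigned.

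The 9 genes, the pathway lists and the marker lists were chosen with earlier results of these data known. Regions were assigned with GENCODE M21. A promoter region overlapped the TSS ± 200 bp of a transcript, and where there were several, that of highest mean log2 CPM (prior count 2) represented the gene. All 55680 regions were fitted together in edgeR 4.0.16 (R 4.3.3) with TMM normalization, age as the only factor, the quasi-likelihood test and Benjamini-Hochberg adjustment at 0.05. Counts summed per gene window were fitted over 16231 genes with the library sizes and TMM factors of the region table. SEs are the log2 fold change divided by the square root of F.

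Named by rule were the promoter region and window sum of each gene, each called region, the region with the smallest adjusted p of each gene without a call, and each called pathway promoter, of which 2 are counted but not reported here by name or drawn. The other member regions with values were picked after their values were seen. Promoter sequences were printed for genes whose representative promoter region was called and, since this held for Pygl alone, for G6pc and Pck1, from RefSeq (GRCm38); the central 200 bp of the other called regions were read from the genome.

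Alternatives were DESeq2 1.42.0, limma 3.58.1 (voom), total counts, loess offsets (span 0.3) on mean abundance or on GC content, filterByExpr, at least 10 counts in every sample, leaving out each library, summing each pair of aged samples, the replicate number as a block, an adjusted p under 0.01, promoters of ± 1000 bp, gene bodies alone, no promoters of other genes and a prior count of 0.5. The fits were tested on simulated data. Near-identical copies (at least 80% of a region at 95% identity) were sought with minimap2 2.31 and bedtools 2.31.1. Figures used matplotlib 3.10.9. Libraries of the same age differed by more than sampling noise (chi-square per degree of freedom 2.38 to 6.06).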

Additional observations from a re-analysis of the deposited data

Results flagged for a closer look

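Each of 26 values (named regions and window sums) was checked in the 4 aged samples for a library far from the other ones, and 1 stood apart. At the Gys2 promoter region, aged 3 had a log2 CPM of 5.80 against 5.32 to 5.39 in the other aged samples. The gap to the nearest sample was 0.865 of the whole range and exceeded the critical value of Dixon's test at the 95% level. Chance sets apart about 1 in 20 such groups, so 1 of 26 is not more than that. Aged 3 was also the highest aged sample in the G6pc, Fbp1, Pklr, Gys2, Pygl and Slc2a2 sums.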

How the results depend on the processing

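The directions of the 5 called regions held under every alternative that gave a value for them, and their calls did not. Without young 1, young 2, aged 1 or aged 3, and with aged 1 and 3 summed, 0 of the 69 regions passed, and calls over all regions dropped from 3198 to 188, 446, 402 and 651 without these libraries and to 962 with the sum. The cause was not tested. Leaving out 1 library gave 0 to 3 more accessible regions (2 with all samples), 0 to 4 less accessible regions (3), 0 to 2 and 0 to 1 window sums called in the 2 directions (1 and 0), and 0 to 12 and 0 to 1 pathway promoters (10 and 0). The filter of 10 counts in every sample gave no value for the distal exon region of Gys2.

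More accessible regions numbered 6 with GC offsets, 1 with total counts, 1 without regions at other genes' promoters, 0 with abundance offsets and 0 at an adjusted p under 0.01, where less accessible regions numbered 0 too. More accessible sums numbered 0 with abundance offsets, with total counts and with aged 1 and 2, 1 and 3 or 2 and 3 summed, and 1 sum (Gys2) was less accessible with DESeq2, total counts or aged 2 and 4 summed. More accessible pathway promoters numbered 19 with DESeq2, 6 with aged 3 and 4 summed, 5 under the filter of 10 counts, 3 with aged 1 and 3 summed, and 0 with abundance offsets or at 0.01. Total counts moved the median over all regions from -0.04 to -0.15. Over all regions the split into more and less accessible was 1360 and 1838, and it was 543 and 2931 with total counts, 2760 and 1931 with DESeq2, 4690 and 1933 with GC offsets and 274 and 564 with abundance offsets.

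The replicate block gave 4 more and 4 less accessible regions, 2 more accessible sums and 1 less accessible pathway promoter. Over all regions it gave 4078 calls, against 3198 without the block. The deviations of same-numbered samples from the means of their ages had correlations of -0.12, 0.06 and 0.03. Such deviations sum to 0 within an age and the pairs are few, so these correlations cannot decide whether the numbers pair the samples.

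The values that changed sign were not called with all samples or in the fit that turned them. With abundance offsets the promoters of Pck1, Fbp1 and Gys2 had -0.32, -0.18 and -0.17, and the sums of Pcx and Slc2a2 had -0.083 and -0.025. Total counts gave -0.057, -0.031 and -0.088 for these promoters and -0.054 for the Pcx sum. The Pck1 and Gys2 promoters had -0.008 and -0.028 with voom and -0.07 and -0.03 with aged 3 and 4 summed, and Gys2 had -0.034 and -0.008 with aged 1 and 3 or 2 and 3 summed. Slc2a2 at its own start had 0.006 with DESeq2 and 0.041 with aged 1 and 4 summed. With aged 1 and 2 summed, the Pck1 3′ UTR region had 0.078 and the Pck1 sum 0.10. The replicate block gave -0.099 for the Pck1 promoter, 0.047 for the Slc2a2 promoter and -0.011 for the Pcx sum, and kept the sign of the Pck1 3′ UTR region at -0.58 (adjusted p = 0.0704, and -0.12 with all samples). Leaving out 1 library, the ranges were -0.44 to 0.13 for the Pck1 3′ UTR region, -0.082 to 0.22 for its promoter, -0.28 to 0.15 for its sum, -0.095 to 0.19 for the Gys2 promoter, -0.11 to 0.059 for the Slc2a2 promoter, -0.004 (without aged 3) to 0.59 for the G6pc sum, which had 0.29 with all samples, -0.17 to 0.007 for the Fbp1 sum and -0.003 to 0.12 for the Pcx sum. At the Pck1 and G6pc bodies, the spread within an age limits what 3 young and 4 aged samples can resolve.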
